A study of Mus musculus with 2 samples.

Results

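The proneural and neuronal factor genes *Neurog1*, *Neurog2*, *Neurod1*, *Neurod2*, *Neurod4*, *Nhlh1*, *Nhlh2* and *Insm1* were followed in single cells of the boundary cap lineage of mouse embryos. They were taken by gene symbol, 8 of the 33207 genes counted, and all 8 were detected in both libraries. The label they were grouped under names basic helix-loop-helix (bHLH) genes, which holds for 7 of them, since *Insm1* encodes a zinc-finger factor that acts in the same neurogenic step. The cells came from *Egr2-Cre* (also called *Krox20-Cre*); *R26-Tomato* embryos at E11.5 or E12.5 (days of embryonic life), 1 library per stage, and both stages carried 1 *Egr2-Cre* allele and the Tomato reporter. Cre made from the *Egr2* locus labels a cell and its progeny for good, so a Tomato-positive cell need not make *Egr2* any longer. Meninges were dissected with the dorsal root ganglia and the dorsal and ventral roots, and Tomato-positive cells were sorted. Each library pooled the traced cells of 1 litter, so there was no replicate, no test between stages was made, and stage, litter and library cannot be told apart.

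After the filters, 833 of 1431 barcodes were kept at E11.5 (median 11601 UMIs, unique molecular identifiers that each stand for a captured mRNA) and 3496 of 3762 at the later stage (median 6140). The clusters, built without the 8 genes, *Sox10* and *Isl1*, held 549 glia-like and 223 neuron-like cells at E11.5 and 1646 glia-like and 1381 neuron-like cells in the E12.5 library, together called lineage cells. A further 210 cells of E12.5, led by *Plcb1* and *Dll1*, stayed unnamed. They had at most 2 markers of any class that met the naming rule, where 3 were needed. They were counted with the lineage cells as neural cells, 772 at E11.5 and 3237 a day later, wherever states of single cells are described. A similar cluster of 50 cells at E11.5, also led by *Plcb1*, was named glia-like on 4 of its 12 listed markers, so the cell classes are not drawn at the same place in the 2 libraries. The label of all cells is boundary cap cells, and of the 2 genes known to mark these, *Egr2* was found in 22.2% and 15.7% and *Prss56* in 24.4% and 31.4% of the glia-like cells at E11.5 and E12.5, against 2.03% or less of the neuron-like cells for either gene. The remaining kept cells, 61 pericyte-like at E11.5 and 259 mesenchymal-like, pericyte-like or myeloid-like at the later stage, served as the background for free RNA. The libraries shared 9 barcode sequences, 7 of them kept in both.

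Proneural bHLH factors start the making of neurons. They pair with E proteins, bind the E-box in DNA, switch on Notch ligands and, in turn, the genes of later bHLH factors. In the neural crest, *Neurog2* and *Neurog1* are known for launching successive waves of sensory neurons in the dorsal root ganglia, the NeuroD factors and *Insm1* act after them, and *Nhlh1* and *Nhlh2* are known from newly born neurons. *Sox10* marks crest progenitors and glia, and *Isl1* encodes a homeodomain factor of sensory and other neurons, so co-detection with these 2 genes places each factor between progenitor and neuron.

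All 8 are protein-coding genes, given here by their GRCm39 positions. *Neurog1* (ENSMUSG00000048904) lies at chr13:56398291-56399976 and *Neurog2* (ENSMUSG00000027967) at chr3:127426448-127429280. *Neurod1* (ENSMUSG00000034701) lies at chr2:79282865-79287294, *Neurod2* (ENSMUSG00000038255) at chr11:98216241-98220480 and *Neurod4* (ENSMUSG00000048015) at chr10:130104021-130116132. *Nhlh1* (ENSMUSG00000051251) lies at chr1:171879859-171885140, *Nhlh2* (ENSMUSG00000048540) at chr3:101917392-101922808 and *Insm1* (ENSMUSG00000068154) at chr2:146063841-146066940. They are spread over several chromosomes, with *Neurog2* and *Nhlh2* on chromosome 3 and *Neurod1* and *Insm1* on chromosome 2, far apart in both cases.

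The E-box reads CANNTG, and CAGATG is a form that neurogenin and NeuroD factors are known to bind. Promoters were read from GRCm39 as 250 bases before and 50 after the annotated start, for the 8 genes and for all 21757 protein-coding genes of GENCODE M39, on both strands. The matches of CAGATG are counted among those of the general form too. CAGATG lay in the window of 5 of the 8 genes, *Neurod1*, *Neurod2*, *Nhlh1*, *Nhlh2* and *Insm1*, and in 15.3% of all promoters, while an E-box of any kind lay in 7 of the 8 and in 70.6% of all. The *Neurog2* window held CAGCTG, found in 14.9% of all promoters, and that of *Neurog1* held CACTTG. The window of *Neurod4* held no E-box. The matches are a description of these letters and not binding sites. The 250 bases before the start are shown for the 4 genes with CAGATG there, to let the neighbourhood of the match be compared. They are written 5′ to 3′ on the gene's strand with CAGATG in capitals, and come from chr2:79287099-79287348 (minus strand), chr11:98220481-98220730 (minus), chr1:171885141-171885390 (minus) and chr3:101917142-101917391 (plus).
Neurod1: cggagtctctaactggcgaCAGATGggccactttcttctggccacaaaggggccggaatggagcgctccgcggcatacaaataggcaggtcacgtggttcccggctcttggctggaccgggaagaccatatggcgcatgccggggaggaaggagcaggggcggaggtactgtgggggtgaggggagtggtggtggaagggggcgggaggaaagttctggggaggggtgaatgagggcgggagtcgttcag
Neurod2: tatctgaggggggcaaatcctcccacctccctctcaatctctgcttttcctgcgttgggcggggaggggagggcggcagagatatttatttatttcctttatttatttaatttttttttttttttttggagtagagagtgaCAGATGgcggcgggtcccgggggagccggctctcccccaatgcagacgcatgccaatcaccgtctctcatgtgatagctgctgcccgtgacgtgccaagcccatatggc
Nhlh1: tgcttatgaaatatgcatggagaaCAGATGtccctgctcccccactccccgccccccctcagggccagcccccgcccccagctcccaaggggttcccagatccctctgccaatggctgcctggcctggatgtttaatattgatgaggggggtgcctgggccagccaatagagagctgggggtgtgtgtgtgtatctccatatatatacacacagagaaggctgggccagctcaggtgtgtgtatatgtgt
Nhlh2: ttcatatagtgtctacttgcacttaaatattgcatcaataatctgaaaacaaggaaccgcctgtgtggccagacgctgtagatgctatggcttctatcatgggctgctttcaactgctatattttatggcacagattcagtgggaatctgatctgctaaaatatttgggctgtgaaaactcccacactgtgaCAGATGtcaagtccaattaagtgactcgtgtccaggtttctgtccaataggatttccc
Starts are those of the canonical transcript, which for *Neurod1* is at base 79287098, inside the outer bounds of the gene, so that most of its window lies within them. The match began 231 bases before the start in *Neurod1*, 109 in *Neurod2*, 226 in *Nhlh1* and 58 in *Nhlh2*, so the 4 genes share the letters and not their position. In *Insm1* it began 5 bases after the start, as CATCTG on the gene's strand.

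*Neurog1*, which specifies sensory neurons, was at full depth the member most often found in *Sox10*-positive *Isl1*-negative cells in both libraries. A cell counted as positive with 1 UMI or more, and shares carry their exact 95% binomial interval, which covers counting error only. *Neurog1* was found in 281 of 772 neural cells at E11.5 and in 644 of 3237 in the E12.5 library. Since the libraries differ in depth, every cell was also thinned to 2000 UMIs, which left 772 and 3086 neural cells, and the shares became 16.1% (13.5–18.8) and 8.65% (7.68–9.70). In *Sox10*-positive *Isl1*-negative cells, the glial state, the thinned share was 4.71% (2.45–8.08) at E11.5 and 3.25% (2.07–4.84) a day later, when *Neurod1* had the same share. In *Isl1*-positive *Sox10*-negative cells, the neuronal state, it was 34.1% (27.7–41.0) at E11.5 and 13.4% (11.47–15.4) at the later stage. The neuronal share was thus lower at the later stage, with intervals that do not overlap, while the glial shares overlap. At full depth *Neurog1* was found in 16.9% (13.5–20.9) of glial-state cells at E11.5 and 7.25% (5.85–8.87) in the E12.5 library. It was found in 0 of 61 and 0 of 259 cells outside the neural classes, counts that allow at most 4.92% and 1.16%, both under its full-depth shares of the glial state. After thinning, 0 of 61 and 0 of 245 such cells allow at most 4.92% and 1.22%. The first lies above the thinned glial-state share of E11.5, the second under that of E12.5.

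**Figure D1:**
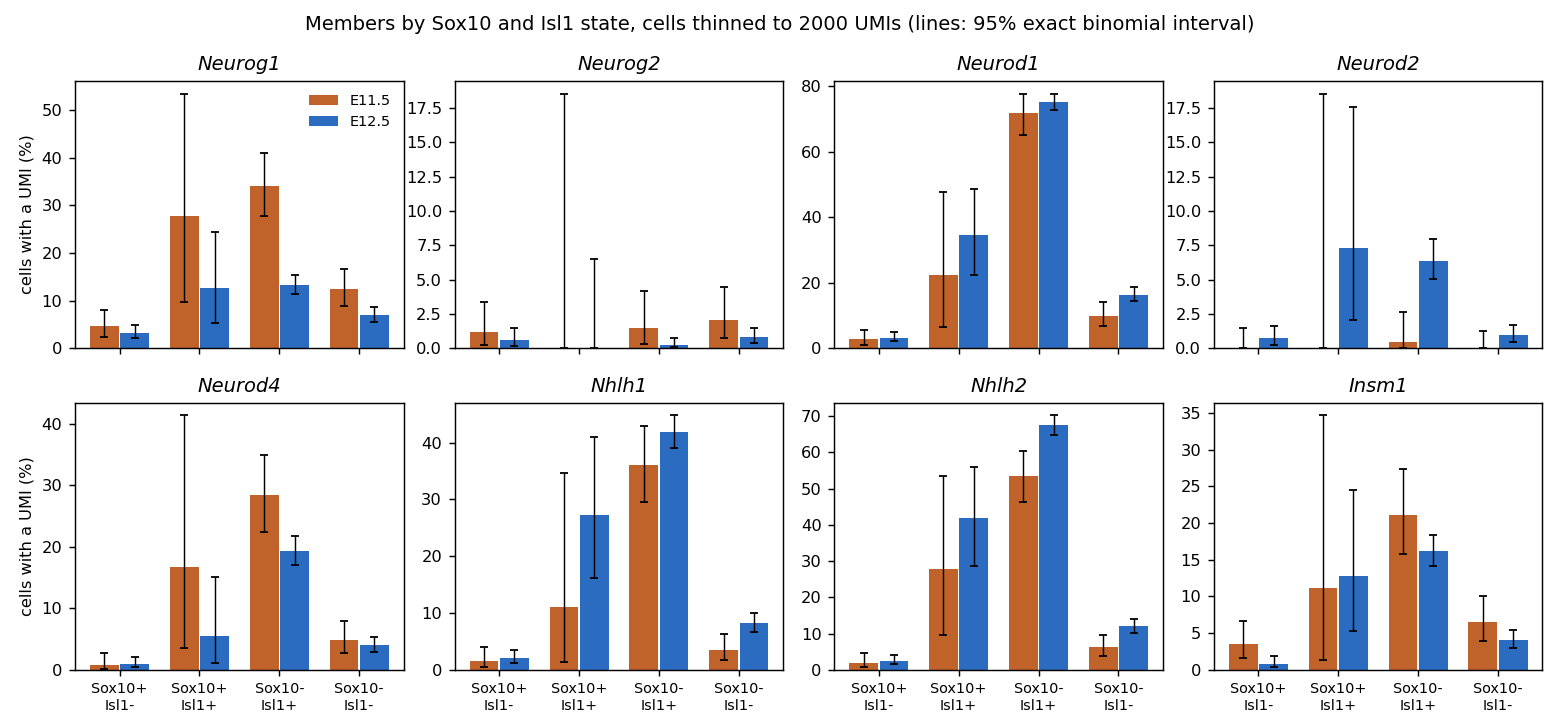
Share of cells (%, y axis, a separate scale for each gene) with a UMI of each member in the 4 states given by *Sox10* and *Isl1* (x axis), with cells thinned to 2000 UMIs, at E11.5 (orange) and E12.5 (blue). Lines are exact 95% binomial intervals. *Neurog1*, *Neurod1*, *Neurod4*, *Nhlh1*, *Nhlh2* and *Insm1* are highest in *Sox10*-negative *Isl1*-positive cells at both stages. *Neurog1* in that state is at 34.1% and 13.4%, with intervals that overlap those of the double-positive state, which rests on 18 and 55 cells.

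*Neurog2*, which acts in the earliest wave of sensory neurogenesis, was rare, with 62 UMIs in 42 neural cells at E11.5 and 52 UMIs in 43 a day later, and most positive cells (71.4% and 83.7%) held a single UMI. At full depth it was found in 6.78% (4.55–9.65) of glial-state cells and 1.01% (0.122–3.58) of neuronal-state cells at E11.5. The later values were 1.42% (0.827–2.26) and 0.606% (0.262–1.19), whose intervals overlap. After thinning it was left in 3 of 255 glial-state and 3 of 208 neuronal-state cells at E11.5 (1.18% and 1.44%) and in 4 of 707 and 3 of 1175 a day later (0.566% and 0.255%), too few to order the states. Of its positive cells, 38 of 42 (90.5%) held *Sox10* at E11.5 and 28 of 43 (65.1%) at the later stage, against 67.0% and 45.9% of all neural cells. Positive cells were most frequent in a glia-like cluster led by *Cntn3* and *Prss56* at E11.5, 12 of 68 (17.6%; 9.47–28.8), in the 50-cell cluster led by *Plcb1*, 9 of 50 (18.0%; 8.58–31.4), and at E12.5 in a glia-like cluster led by *Cntn3*, *Dcc* and *Mybpc1*, 13 of 153 (8.50%; 4.60–14.1). In this last cluster *Neurog1* was found in 3 of 153 cells (1.96%; 0.406–5.62), so few of its cells held *Neurog1*. Over all neural cells, 13 of the 42 *Neurog2*-positive cells of E11.5 and 8 of the 43 of E12.5 also held *Neurog1*, that is 31.0% and 18.6%, close to the 36.4% and 19.9% of neural cells in general. Only 1 of 61 and 0 of 259 cells outside the neural classes held *Neurog2*.

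*Neurod1*, a bHLH factor of neuronal differentiation, was a neuronal-state gene in both libraries. It was found in 71.6% (65.0–77.7) of neuronal-state cells at E11.5 and 75.1% (72.6–77.6) in the E12.5 library after thinning, against 2.75% (1.11–5.57) and 3.25% (2.07–4.84) of glial-state cells. The first pair of intervals overlaps, and a change of the neuronal share between the stages was not tested. At full depth the glial-state shares were 4.60% and 5.42%, and 3.28% and 3.09% of the cells outside the neural classes held the gene too, with overlapping intervals. After thinning, the cells outside held it in 2 of 61 (3.28%) and 2 of 245 (0.816%; 0.0990–2.92), and at E12.5 this lies under the glial-state share with intervals that overlap. The part of free RNA in the few *Neurod1* UMIs of the glial state was not tested. In CPM (counts of the summed cells per 1000000 UMIs), neuronal-state cells had 885 at E11.5 and 836 a day later, against 5.33 and 9.43 in the glial state.

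*Neurod4*, a related factor of the same step, was found in 28.4% (22.3–35.0) of neuronal-state cells at E11.5 and 19.3% (17.1–21.7) at the later stage after thinning, intervals that just miss each other. Its glial-state shares were 0.784% (0.0951–2.80) and 0.990% (0.399–2.03). *Insm1*, which is known from cycling neuronal progenitors and newborn neurons, was found in 21.2% (15.8–27.3) and 16.2% (14.1–18.4) of neuronal-state cells, which overlap. In the glial state *Insm1* was at 3.53% (1.63–6.59) at E11.5 and 0.849% (0.312–1.84) in the E12.5 library, a lower value with overlapping intervals. By thinned CPM the glial-state level of *Insm1* was 19.6 (9.40–36.1) and 4.24 (1.56–9.24), on 10 and 6 UMIs, intervals that do not overlap. At full depth it was 3.56 (2.11–5.62) and 2.45 (1.48–3.83), on 18 and 19 UMIs, intervals that overlap. The thinned values rest on 1 random draw, with the states called again on the thinned counts. Both genes were thus mostly neuronal, with lower neuronal-state shares at E12.5, although those of *Insm1* overlap.

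*Nhlh1* and *Nhlh2*, bHLH factors known from newly born neurons, differed from *Neurog1* in the opposite direction between the stages. *Nhlh2* was found in 53.4% (46.3–60.3) of neuronal-state cells at E11.5 and 67.6% (64.8–70.2) a day later, without overlap. *Nhlh1* was found in 36.1% (29.5–43.0) and 42.0% (39.1–44.8), with overlap. Their glial-state shares were 1.57% to 2.55% in both libraries. At full depth these were 2.66% and 3.08% for *Nhlh1* and 4.84% and 5.17% for *Nhlh2*, beside 0 of 61 and 3.86% for *Nhlh1* and 3.28% and 2.70% for *Nhlh2* in cells outside the neural classes. After thinning, 2.12% and 2.55% of the glial-state cells of E12.5 held *Nhlh1* and *Nhlh2*, beside 0.816% and 1.22% of the cells outside, with overlapping intervals, and the part of free RNA was not tested.

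*Neurod2*, known from maturing neurons, was seen mostly at E12.5. At E11.5 it had 19 UMIs in 17 neural cells, all of them neuron-like, and no UMI in the 549 glia-like cells, which limits the share of cells with a UMI, though not of cells that express the gene, to 0.546%. At E12.5 it had 324 UMIs in 260 cells, of which 253 were neuron-like. The thinned share of neuronal-state cells was 0.481% (0.0122–2.65) at E11.5 and 6.38% (5.05–7.94) at the later stage. The gene stayed rare even then, and 79.2% of its positive cells held 1 UMI.

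What the positive cells of each factor also held was used to order the factors. Cells with neither *Sox10* nor *Isl1* made up 37.7% and 37.2% of the thinned neural cells at E11.5 and E12.5, against 7.25% and 13.3% at full depth. They held 36 of the 124 and 80 of the 267 thinned *Neurog1*-positive cells, which neither gene places. After thinning, *Sox10* was found in 13.7% (8.19–21.0) of *Neurog1*-positive neural cells at E11.5 and 11.2% (7.71–15.7) in the E12.5 library. For *Nhlh1* the shares were 6.59% (2.46–13.8) and 4.86% (3.30–6.87), and for *Neurod1* 5.82% and 3.77%. *Neurod4* had 6.41% and 3.53%, *Nhlh2* 7.19% and 4.21%. The *Neurog1* share lay above that of these 4 genes in both libraries, and its interval was clear of theirs at E12.5 but not at E11.5. *Neurod2* had 9.47% (4.42–17.2) at E12.5, which overlaps *Neurog1*. *Insm1* had 14.9% (7.66–25.04) at E11.5, near *Neurog1*, and 5.20% (2.80–8.73) at E12.5, near the later factors. All neural cells had 35.4% and 24.7%. The lineage cells alone gave 11.48% for *Neurog1* and 4.03% for *Nhlh1* at E12.5, and at E11.5 they are the same cells as the neural ones. The order rests on single UMIs: with 2 UMIs or more asked of *Sox10*, the shares at E11.5 were 1.61% and 1.10%, and with 2 or more asked of the factor, those of the lineage cells at E12.5 were 3.33% and 3.81%, the other way round.

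The same order appeared from the neuronal side. *Isl1* was found in 61.3% (52.1–69.9) of *Neurog1*-positive cells at E11.5 and 61.4% (55.3–67.3) a day later, against 81.0% (74.6–86.3) and 81.0% (78.6–83.3) of *Neurod1*-positive cells. The *Isl1* shares of *Neurod4*, *Nhlh1* and *Nhlh2* lay between 79.5% and 84.6% in both libraries, so these genes and *Neurod1* are not separated by it. *Insm1* had 62.2% (50.1–73.2) at E11.5 and 78.8% (73.2–83.7) at the later stage. *Neurog2*-positive cells held *Isl1* in 3 of 12 and 3 of 16 cells, and *Sox10* in 3 of 12 and 4 of 16, at which numbers no order can be read.

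Cycling cells, those with 2 or more of 6 genes of the cell cycle (*Mki67*, *Top2a*, *Cdk1*, *Ccnb1*, *Birc5* and *Cenpf*), made up 40.3% and 22.5% of the thinned neural cells at E11.5 and E12.5. They made up 37.8% (26.8–49.9) and 19.2% (14.5–24.6) of *Insm1*-positive cells and 29.0% (21.2–37.9) and 20.2% (15.6–25.5) of *Neurog1*-positive cells. *Neurod4* followed with 21.8% and 11.3%, and *Neurod1* with 20.1% (14.6–26.5) and 7.55% (6.06–9.26). The lowest shares were those of *Nhlh2*, 12.2% and 6.47%, of *Nhlh1*, 12.1% (6.19–20.6) and 5.19% (3.57–7.24), and of *Neurod2*, 2 of 95 cells (2.11%; 0.256–7.40) at E12.5. Of the *Neurog2*-positive cells, 9 of 12 and 5 of 16 were cycling. The sequence from *Insm1* and *Neurog1* through *Neurod4* and *Neurod1* to the Nhlh pair was the same in both libraries, though neighbours in it overlap. At E12.5 the *Neurog1* and *Insm1* intervals were clear of those of *Neurod1*, *Nhlh1* and *Nhlh2*.

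**Figure D2:**
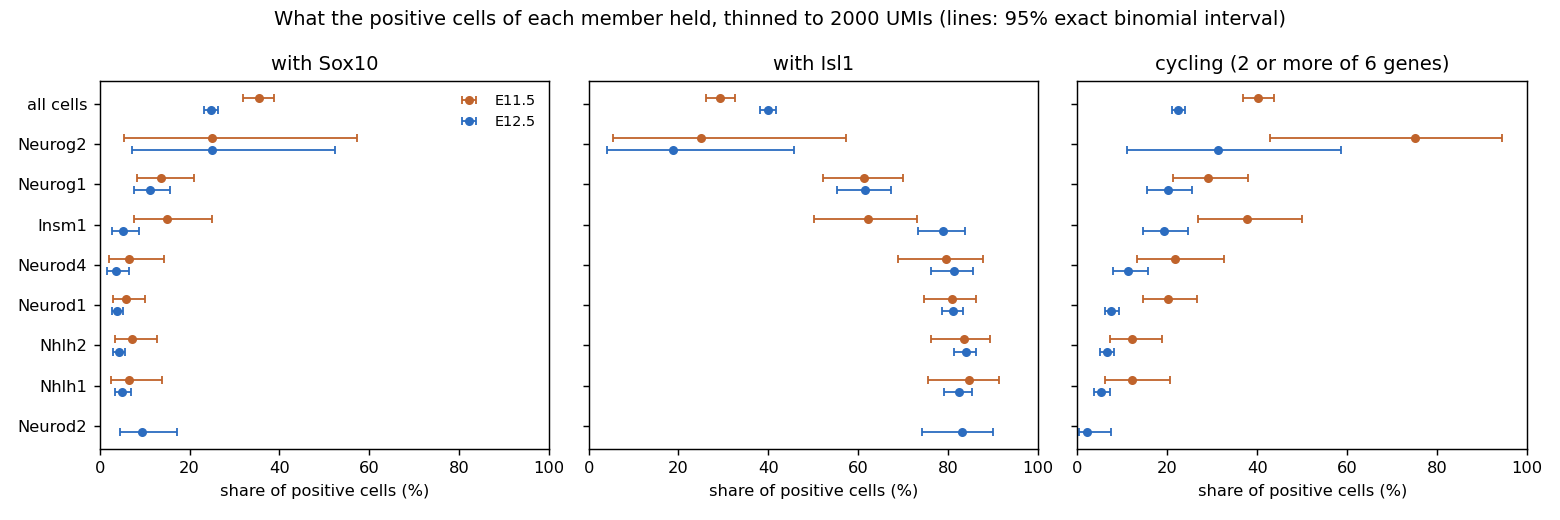
Share (%, x axes) of the thinned positive cells of each member (rows) that also held *Sox10* (left), *Isl1* (middle) or were cycling (right), at E11.5 (orange) and E12.5 (blue), with exact 95% binomial intervals and the value of all neural cells on top. *Neurog1* lies to the right of *Neurod1*, *Nhlh1* and *Nhlh2* for *Sox10* and to the left of them for *Isl1*, and *Neurog2* rests on 12 and 16 cells.

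In the pair of *Neurog1* and *Neurod1*, cells with *Neurog1* alone held the most *Sox10* and the least *Isl1*. After thinning they held no more *Sox10* than all neural cells did, while at full depth they held more. Thinned cells with *Neurog1* and no *Neurod1* held *Sox10* in 15 of 62 cells at E11.5 (24.2%; 14.2–36.7) and in 26 of 108 in the E12.5 library (24.1%; 16.4–33.3). Cells with both held it in 2 of 62 (3.23%; 0.393–11.2) and 4 of 159 (2.52%; 0.690–6.32). Those with *Neurod1* and no *Neurog1* held it in 7.09% (3.29–13.0) and 3.98% (2.83–5.43). *Isl1* went the other way, with 41.9%, 80.6% and 81.1% in these groups at E11.5 and 39.8%, 76.1% and 81.9% a day later. The cells with *Neurog1* and no *Neurod1* thus held more *Sox10* and less *Isl1* than both other groups in both libraries, with intervals clear of theirs, while the intervals of the other 2 groups overlap each other. At full depth the *Sox10* shares were 91.8%, 24.6% and 35.4% at E11.5 and 68.7%, 14.7% and 13.5% at the later stage. Those of cells with *Neurog1* alone lay above the full-depth shares of all neural cells, given above beside *Neurog2*.

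The later pairs were less clear. Cells with *Neurod1* and no *Nhlh2* held *Isl1* in 70.0% at E11.5 and 66.8% in the E12.5 library, and cells with both in 90.9% and 87.9%. They were cycling in 33.3% and 13.3%, against 8.08% and 4.79% of the cells with both. The reverse group, *Nhlh2* without *Neurod1*, gave similar values, 65.0% and 70.3% with *Isl1*, so the pair shows that cells with both factors were the more neuronal ones and sets no order between them. For *Insm1* and *Neurod1*, cells with *Insm1* alone held *Sox10* in 28.6% (13.2–48.7) at E11.5 and 14.5% (7.45–24.4) a day later, and cells with both in 6.52% (1.37–17.9) and 1.15% (0.140–4.09), which do not overlap at E12.5.

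At full depth nearly every cell with one of the later factors held *Neurod1*. It was found in 93.9% of *Nhlh1*-positive, 92.8% of *Neurod4*-positive, 88% of *Nhlh2*-positive and 88.2% of *Insm1*-positive cells at E11.5, and in 91.7%, 95%, 89.6% and 91.8% at the later stage. All 17 *Neurod2*-positive cells of E11.5 held *Neurod1*, *Nhlh1* and *Nhlh2*. Of *Neurog1*-positive cells, 65.1% held *Neurod1* at E11.5 and 77.2% in the E12.5 library. The reverse share differed between the stages, with *Neurog1* in 69.1% of *Neurod1*-positive cells at E11.5 and in 33.5% a day later. It was also lower among *Neurod4*-positive cells, 78.4% and 41.8%, and among *Insm1*-positive cells, 71.3% and 39.4%. The cells of E11.5 were deeper, which raises such shares; after thinning, *Neurog1* was found in 32.8% and 14.3% of *Neurod1*-positive cells.

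**Figure D3:**
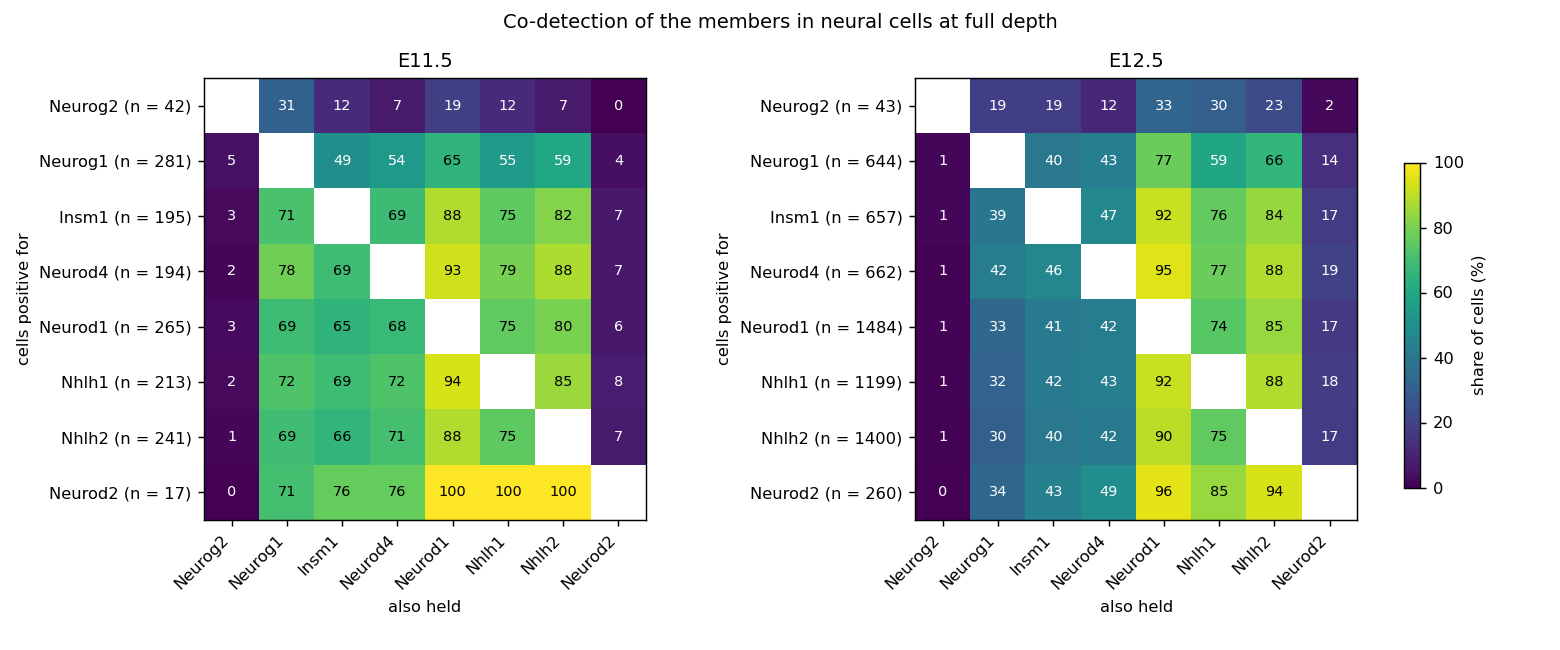
Share (%, colour and number) of the neural cells positive for the gene of a row, at full depth, that also held the gene of a column, at E11.5 (left) and E12.5 (right), with the number of positive cells beside each row. The *Neurog1* column is lower at E12.5 (33.5% of *Neurod1*-positive cells) than at E11.5 (69.1%), and the *Neurog2* row and column are low in both, with no share above 32.6%.

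The number of members per cell followed the state. At full depth, glial-state cells held a median of 0 of the 8 genes, and 67.1% (E11.5) and 79.0% (E12.5) of them held none. Neuronal-state cells held a median of 5 and 4, and 3.02% and 3.11% held none. Cells with both *Sox10* and *Isl1*, 104 at E11.5 and 285 at the later stage, held a median of 3 and 2, and 62.5% (52.5–71.8) and 30.5% (25.2–36.2) of them held *Neurog1*. Their median depth was 13002 and 6857 UMIs, against 12526 and 6087 in the glial and 11601 and 6474 in the neuronal state, and their median Scrublet doublet score 0.0335 and 0.0331, against 0.0440 and 0.0376 in the glial state and 0.0196 and 0.0236 in the neuronal state. The double-positive cells were slightly the deepest of the 3 states, and their doublet score lay between the others. Outside the neural classes, *Sox10* and *Isl1* were found in 0 and 4 of 61 cells at E11.5 and in 5.41% and 6.95% of the 259 cells of E12.5, and the part of free RNA in the double-positive cells was not tested. Where a glial-state cell held any member, that was *Neurog1* in 70 of 136 cells (51.5%; 42.8–60.1) of the E11.5 library, and in 87 of 252 (34.5%; 28.7–40.7) a day later. It was the only member in 53 and 60 of them.

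Along a score of each cell from glia to neuron, the share of its UMIs of 14 neuron-like and 12 glia-like markers that fell on the neuron-like ones, the factors differed in where they were most frequent. None of the 8 genes, *Sox10* or *Isl1* is among these markers. The score was cut into 5 equal bins, and bins 3 and 4 of E11.5 held only 19 and 17 cells, so the order is read from E12.5, where they held 53 and 68. There *Sox10* went from 43.8% in bin 1 through 15.1% in bin 3 to 2.64% in bin 5, and *Isl1* from 3.67% through 34.0% to 85.1%. *Neurog1* was found in 3.22%, 9.15%, 28.3% (16.8–42.3), 33.8% (22.8–46.3) and 12.9% (11.1–14.8) of the cells of bins 1 to 5, highest in bin 4 and lower again in bin 5 without overlap with it. *Dll1*, a Notch ligand, was highest in bin 3 at 15.1% and reached 1.79% in bin 5. *Neurod4* and *Insm1* were highest in bin 4, at 27.9% (17.7–40.1) and 26.5% (16.5–38.6), and had 19.0% (16.9–21.3) and 16.5% (14.5–18.7) in bin 5, which overlap. *Neurod1* was at 39.6% in bin 3, 55.9% in bin 4 and 78.0% (75.6–80.2) in bin 5. *Nhlh2* went from 11.3% to 41.2% and 70.5% over these bins and *Nhlh1* from 9.43% to 19.1% and 44.7%. *Neurod2* was found in 0 of the cells of bins 3 and 4, and in 7.14% of bin 5. At E11.5 *Neurog1* was found in 7 of the 17 cells of bin 4 (41.2%; 18.4–67.1) and in 36.3% (29.8–43.2) of the 212 cells of bin 5. These intervals overlap, and bin 4 is too small to show whether the share drops there.

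**Figure D4:**
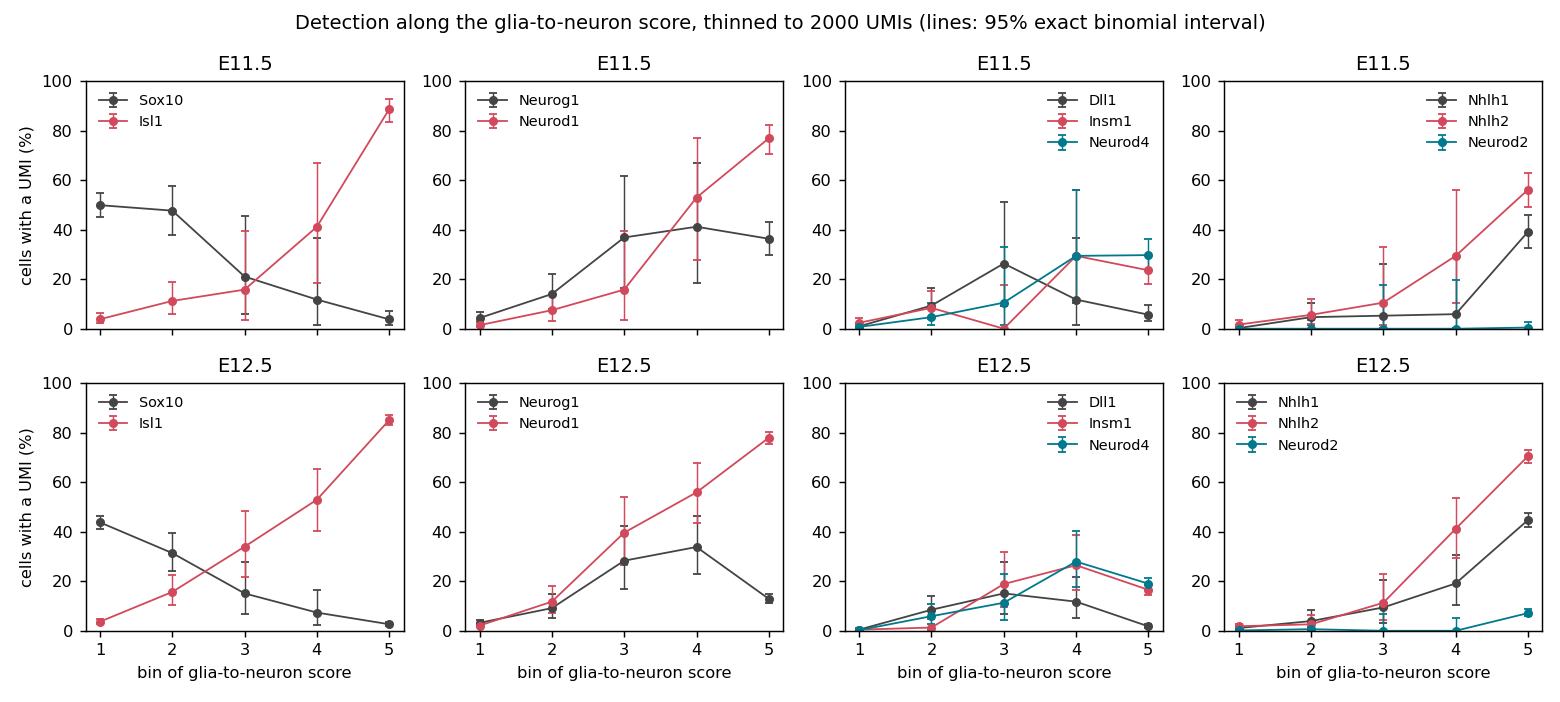
Share of thinned cells (%, y axis) with a UMI of each gene over 5 bins of the glia-to-neuron score (x axis, 1 most glial, 5 most neuronal), at E11.5 (top) and E12.5 (bottom), with exact 95% binomial intervals. *Sox10* falls and *Isl1* rises along the score at both stages, *Neurog1* at E12.5 is highest in bin 4 (33.8%) and lower in bin 5 (12.9%), and bins 3 and 4 of E11.5 hold 19 and 17 cells.

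Some groups of cells carried most factors at once. A neuron-like cluster of 38 cells at E11.5, led by *Rgs20*, *Mybl1* and *Dll1*, held *Neurog1* in 97.4% (86.2–99.9), *Neurod1* in 38 of 38, *Neurod4* and *Insm1* in 89.5% each and *Nhlh1* in 71.1% of its cells. At E12.5 a neuron-like cluster of 64 cells led by genes of the cell cycle held them in 68.8% (55.9–79.8), 64 of 64, 70.3%, 82.8% and 70.3%. At full depth, 38 of 38 and 64 of 64 cells of these clusters were cycling, and 84.2% and 96.9% held *Nhlh2*. The Nhlh pair was thus also found in cycling cells. The 210 unnamed cells of E12.5 stood earlier by these genes, with *Neurog1* in 59.0% (52.1–65.8), *Neurod1* in 51.0%, *Insm1* in 32.9%, *Neurod4* in 22.9%, *Sox10* in 47.1% and *Isl1* in 60.5%. The 50-cell cluster of E11.5 that was also led by *Plcb1* was alike, with *Neurog1* in 70.0% (55.4–82.1), *Neurod1* in 42.0% and *Insm1* in 20%. At the other end, a neuron-like cluster of 247 cells at E12.5 with *Sncg* and *Nefl* among its leading genes held *Neurog1* in 5.67% and *Neurod4* in 13.4% but *Nhlh1* in 78.1% and *Nhlh2* in 89.1% of its cells. The genes of interest took no part in the clustering, although genes that go with them did.

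Between the stages the 2 neurogenins had lower and *Neurod2* and the Nhlh pair higher levels at E12.5. The level is CPM over the lineage cells, and a gene is called where it differs by 2-fold or more with at least 20 UMIs in all. Intervals of these ratios cover counting error in 1 library each. *Neurog1* had 110 CPM (103–117) at E11.5 and 40.3 (37.6–43.3) in the E12.5 library, a ratio of 0.366 (0.333–0.402). *Neurog2* had 6.90 (5.29–8.85) and 2.26 (1.64–3.04), a ratio of 0.328 (0.218–0.491). *Neurod2* had 2.11 (1.27–3.30) and 16.6 (14.9–18.5), a ratio of 7.86 (4.95–13.2). *Nhlh1* had 74.2 and 151 CPM, a ratio of 2.03 (1.87–2.21), and *Nhlh2* 146 and 321, a ratio of 2.20 (2.07–2.33). *Neurod1* (1.48; 1.42–1.55), *Neurod4* (0.806; 0.728–0.894) and *Insm1* (0.895; 0.802–1.00) were within 2-fold. In all, 3 of the 8 genes were called higher and 2 lower, while of 15085 genes compared 12.4% were called higher and 2.40% lower, and the median ratio was 1.19 for the 8 genes and 1.10 for all. With the 210 unnamed cells added, a setting also chosen after the data were seen, the *Neurog1* ratio was 0.471 (0.432–0.514), still called, and that of *Nhlh1* 1.94 (1.79–2.12), no longer so. With them 2 of the 8 genes were called higher and 2 lower, and 12.2% and 2.29% of all genes. Over the alternatives tried, the *Nhlh1* ratio lay between 1.89 and 2.05 and was 2 or more only with a minimum of 2000 UMIs (2.03) or at a clustering resolution of 0.5 (2.05).

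These ratios hold both the levels within a state and how many cells are in it, and neuron-like cells were 223 of the 772 lineage cells of E11.5 and 1381 of the 3027 of E12.5. Within neuronal-state cells, *Neurog1* had 256 CPM at E11.5 and 78.1 at the later stage, a ratio of 0.305 (0.273–0.341), and *Neurod2* 6.12 and 31.7, a ratio of 5.18 (3.04–9.60). *Neurod4* was at 0.542 (0.484–0.608), *Insm1* at 0.679 (0.599–0.771) and *Neurod1* at 0.946 (0.900–0.994). *Nhlh1* was at 1.20 (1.10–1.32) and *Nhlh2* at 1.35 (1.27–1.45), so neither was called within this state. Of the 7 members with enough UMIs, 1 was called higher and 1 lower, and of 12389 genes 9.73% and 2.58%. In the glial state *Neurog2* was at 0.360 (0.204–0.620) and *Neurog1* at 0.654 (0.506–0.845), and *Nhlh1* at 2.07 (1.06–4.35) on 12 and 38 UMIs. There 1 of 7 members was called higher and 1 lower, and of 13029 genes 9.43% and 1.96%. After thinning, the glial-state CPM of *Nhlh1* was 7.84 (2.14–20.1) at E11.5 and 12.7 (7.54–20.1) at E12.5. These rest on 4 and 18 UMIs, and their intervals overlap. The states rest on UMIs of *Sox10* and *Isl1* at full depth, and a cell of the shallower E12.5 library is more easily called negative for either.

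**Figure D5:**
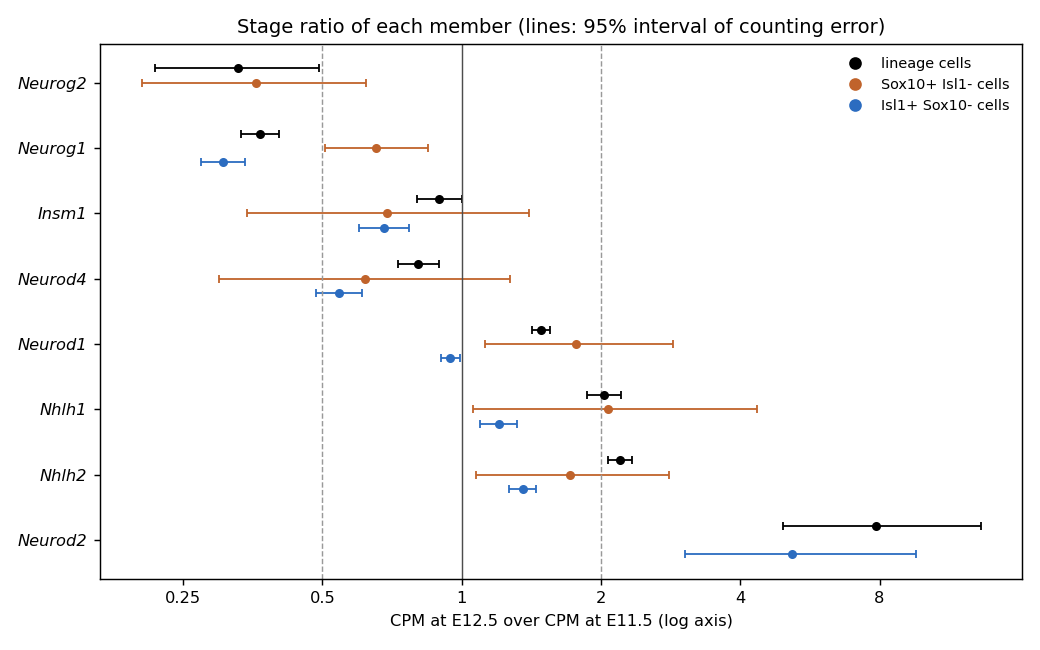
CPM at E12.5 over CPM at E11.5 (x axis, log scale) for each member in lineage cells (black), *Sox10*-positive *Isl1*-negative cells (orange) and *Isl1*-positive *Sox10*-negative cells (blue), with 95% intervals of counting error and dashed lines at 2-fold. *Neurog1* lies below 1 in every population, from 0.305 to 0.654, and *Neurod2* at 5.18 and 7.86 where shown, while *Neurod1* lies at 1.48 in lineage cells and 0.946 in *Isl1*-positive *Sox10*-negative cells.

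Within each library the neuronal state was set against the glial state. *Neurod1* was 166-fold (114–252) higher in CPM at E11.5 and 88.7-fold (70.4–113) in the E12.5 library, *Nhlh2* 90.1-fold and 71.4-fold, *Nhlh1* 104-fold and 60.3-fold, *Neurod4* 54.5-fold and 47.9-fold, and *Insm1* 42.3-fold and 41.6-fold. *Neurog1* differed much less, by 10.4-fold (8.53–12.7) and 4.83-fold (3.99–5.89). *Neurog2* was lower in the neuronal state at full depth, with ratios of 0.111 (0.0129–0.426) and 0.315 (0.121–0.735). After thinning its CPM at E11.5 was 5.88 (1.21–17.2) in the glial and 7.21 (1.49–21.1) in the neuronal state. These rest on 3 UMIs each, too few to show whether the states differ at that depth. Of the members with enough UMIs, 6 of 7 were called higher and 1 lower at E11.5 and 7 of 8 and 1 a day later, where 11.0% and 13.3% of all genes were called higher and 18.8% and 21.9% lower. *Neurod2*, with 3 UMIs in the glial state at E12.5, was at 81.8 (27.7–399). The part of free RNA in the low glial levels, and so in the size of these folds, was not tested.

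The genes around the members in the pathway were taken from fixed lists. Of 10 targets of proneural factors and Notch ligands, all 10 were called higher in the neuronal than in the glial state at E11.5 and 9 at the later stage, beside 11.0% and 13.3% of all genes. Among them were *Hes6*, a target that blocks Hes1 (25.7-fold and 20.5-fold), *Srrm4*, a neuronal splicing factor (40.1-fold and 40.2-fold), and *Dll1* (5.01-fold and 8.60-fold). Of 10 Notch receptors and Hes, Hey and Id inhibitors, which hold back bHLH factors, 0 were called higher, 7 of the 9 with enough UMIs were called lower at E11.5 and 8 of 10 in the E12.5 library, beside 18.8% and 21.9% of all genes, with *Id3* at 0.0578 and 0.0565 and *Hes1* at 0.114 and 0.0282. The 3 E protein partners *Tcf3*, *Tcf4* and *Tcf12* were within 2-fold in both libraries, at ratios from 0.735 to 1.32. The lists' median ratios were 22.2 and 11.8, 0.134 and 0.139, and 0.878 and 0.914, against 0.908 and 0.902 over all genes.

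Between the stages *Dll1* went with the neurogenins, at 20.9 CPM in lineage cells of E11.5 and 5.76 at E12.5, a ratio of 0.275 (0.216–0.350). It was the only one of its list of 10 called lower, beside 2.40% of all genes. In the same list 2 genes, *Jag2* and *Cbfa2t3*, were called higher, beside 12.4% of all genes, and the list's median ratio was 1.27. The unnamed cells of E12.5 are led by *Dll1* among others, and with them it was at 10.1 CPM and the ratio at 0.485 (0.396–0.593), still called. *Hes6* was at 0.875 (0.844–0.907). *Hes5*, a Notch target, was at 2.64 (2.02–3.51) and the only one called in the list of inhibitors. Of 14 other neural bHLH, Insm and Myt factors, 5 had enough UMIs. All 5 were called higher at E12.5, beside 12.4% of all genes. *Myt1l* was at 3.85 (2.81–5.38), *Bhlhe23* at 2.63, *Myt1* at 2.41 and *St18* at 2.05, which became 1.93 with the unnamed cells. The fifth, *Neurod6*, had 0 UMIs in 772 cells at E11.5 and 39 in 3027 a day later. Within neuronal-state cells only 2 of the 5 were called higher, *Neurod6* and *Myt1l*, beside 9.73% of all genes. Among the sensory factors, 4 of 13 with enough UMIs were called higher and 0 lower, beside 12.4% and 2.40% of all genes, and 3 with the unnamed cells, where *Prrxl1* went from 2.05 to 1.92. Called in both were *Runx1* at 6.21 (2.90–15.9) and *Runx3* at 4.97 (1.81–19.1), beside *Pou4f1* at 1.41 and *Tlx3* at 1.45. Within neuronal-state cells 3 of 12 sensory factors were called higher and 2 lower, beside 9.73% and 2.58% of all genes. None of the 6 cycling genes was called, and their median ratio was 0.719.

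The genes most like each member across the lineage cells were ranked by the lower of the 2 libraries' Pearson correlations of log-normalized values, over 772 and 3027 cells, which share libraries and depth. *Neurog1* came with *Hes6* (r = 0.63 and 0.41), *Gadd45g* (0.63 and 0.37), *Ppp1r14a*, *Srrm4* and *Eya2*. *Neurod1* came with *Thsd7b* (0.84 and 0.85), *Isl1* (0.88 and 0.84), *Elavl3*, *Mfap4* and *Tubb3*, and *Nhlh1* and *Nhlh2* with *Isl1*, *Tubb3*, *Thsd7b* and *Neurod1* among their 5 closest genes each. *Neurod4* and *Insm1* shared *Hes6*, *Ppp1r14a*, *Neurod1* and *Tmsb4x*. The correlations of *Neurog2* were weak, the closest being *Mybpc1* (0.20 and 0.11). *Neurod2*, found in 17 cells at E11.5, was not ranked.

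Markers of other cell types were looked for in the neural cells. At full depth, 2 or more of the listed markers of central nervous system progenitors, motor neurons or spinal interneurons were found in at most 5 of 772 cells at E11.5 and in 0 of 3237 at the later stage. Mesenchymal-like markers reached that level in 19.9% and 20.9% of the neural cells. They did so in 26.2% and 20.9% of *Neurog2*-positive cells and in 4.98% and 4.35% of *Neurog1*-positive cells, against 0.515% to 3.08% of the positive cells of *Neurod1*, *Neurod4*, *Nhlh1*, *Nhlh2* and *Insm1*, and their part in the values above was not tested. An E11.5 cluster of 85 glia-like cells was shallow, with a median of 2840 UMIs, and led by the haemoglobin gene *Hbb-y*. Without it, a setting chosen after the data were seen, the *Neurog1* ratio was 0.360 and the *Nhlh1* ratio 1.98, below the 2-fold call.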

How the data were processed

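The deposited files hold raw UMI counts per gene and barcode, 1 matrix for each stage, which the authors made with Cell Ranger (7.0 in the submitters' processing notes, 7.0.1 in the matrix header) from 10x 3′ libraries on the mm39 genome. Each library pooled the cells of 1 litter, and the whole counts were taken as deposited, 10287595 and 23460243 UMIs for E11.5 and E12.5. The library from *Prss56-Cre* embryos was not analysed here.

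Barcodes with over 10% mitochondrial UMIs, under 2000 (E11.5) or 1000 (E12.5) UMIs, or a Scrublet score of 0.2 or more were removed. Each library was clustered on its own (scanpy 1.11.5, python 3.11.15; 3000 variable genes, 30 principal components, 15 neighbours, Leiden resolution 1) without the 8 genes, *Sox10* and *Isl1*, and clusters were named from listed markers, 3 or more of which had to be detected. Cells were thinned at random to 2000 UMIs, and 151 shallower neural cells of E12.5 were left out of thinned values. Shares carry exact Clopper-Pearson intervals (scipy 1.17.1), CPM exact Poisson intervals, and ratios conditional binomial intervals, all at 95% and covering counting error only. A ratio was called at 2-fold with 20 UMIs or more over both groups. A count of 0 allows a share of up to 3 cells of the total. Ratios and background shares were computed over all genes with enough UMIs, and the calculation was tested on simulated data.

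Both libraries are single, so no p-value is given. The members and lists were chosen with earlier results of these data known. Genes named beyond the members are those of the lists past 2-fold, a few list members within it, chosen after their values were seen, and the 5 genes most like each member, among genes with 20 or more positive cells in each library. Alternatives changed the filters, the clustering, the thinning, the scaling and the UMIs needed to call a cell positive. Sequences were read from GRCm39 with GENCODE M39 starts.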

Additional observations from a re-analysis of the deposited data

Results flagged for a closer look

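At full depth, the stage ratios of *Neurod1* lay on either side of 1 in the 2 states. In *Sox10*-positive *Isl1*-negative cells its CPM at E12.5 over that at E11.5 was 1.77 (1.12–2.86), on 73 and 27 UMIs. In *Isl1*-positive *Sox10*-negative cells the ratio was 0.946 (0.900–0.994), on 7469 and 2025 UMIs. After thinning, the glial state had 13.7 CPM (5.52–28.3) at E11.5 and 22.6 (15.5–31.9) at E12.5, on 7 and 32 UMIs. The neuronal state had 803 (719–894) and 896 (858–935). The intervals of each pair overlap and rest on 1 random draw, so no direction can be read at matched depth. The difference between the 2 ratios was not tested, since each stage is 1 library. The glial-state shares, 5.42% and 4.60%, overlap those of cells outside the neural classes, 3.09% and 3.28%.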

How the results depend on the processing

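No paired analysis was possible because each stage is 1 library and the labels give no replicate numbers that pair them. Of 81 recomputed values of the planned results, 61 stayed within the counting interval of the reported value, 20 moved beyond it and 0 changed direction. Of 366 other values of the 8 genes 284 stayed, 82 moved and 0 changed direction. Only a ratio whose interval excluded 1 could be counted as changing direction, so shares could not be. The order between shares was not among these values, and that of *Neurog1* and *Nhlh1* by *Sox10* did turn round, as given above. The *Neurog1* ratio of E12.5 to E11.5 in lineage cells (0.366) was 0.466 without the Scrublet filter, 0.456 with a score under 0.1, 0.464 over all kept cells, 0.424 with a minimum of 2000 UMIs in both libraries, 0.471 with 15 principal components, 0.331 at Leiden resolution 0.5, 0.419 with every cell thinned and 0.471 with the unnamed cluster, an alternative chosen after seeing the data, as was leaving out the shallow cluster of E11.5. With 15 principal components 0 cells of E12.5 stayed unnamed, and at resolution 0.5 287 did. The *Sox10* shares that follow are over lineage cells, so at E12.5 they leave out the unnamed cells. The *Sox10* share of *Neurog1*-positive cells was 48.0% at E11.5 and 22.5% at E12.5 without thinning. It was 21.3% at E11.5 when thinned to 4000 UMIs, and 1.61% and 2.87% with 2 UMIs asked of *Sox10*. At E12.5 it was 3.33% with 2 UMIs asked of *Neurog1*. That of *Nhlh1*-positive cells was 23.0% and 10.4% without thinning, 7.18% at E12.5 when thinned to 4000 UMIs, 1.10% and 0.336% with 2 UMIs asked of *Sox10*, and 0 of 16 cells at E11.5 with 2 UMIs asked of *Nhlh1*. The *Nhlh1* ratio lay between 1.89 and 2.05 over the alternatives and was under 2 in all but those with a minimum of 2000 UMIs (2.03) and Leiden resolution 0.5 (2.05). Of the 8 genes, 2 were lower by 2-fold or more under each alternative run. Scaling by well-detected genes shifted all ratios by 0.04 on the log2 scale. With 1 library a stage, litter and library effects cannot be told from stage, and low genes such as *Neurog2* rest on single UMIs.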

Other observations

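Barcodes removed by the filters, 598 at E11.5 and 266 at E12.5, also held the neuronal factors. *Neurod1* was found in 8.70% (6.56–11.2) and 23.3% (18.4–28.9) of them and *Nhlh2* in 8.53% and 23.3%. *Neurog1* was found in 5.02% (3.41–7.08) and 6.77% (4.06–10.5), and *Insm1* in 6.86% and 12.4%. *Neurog2* was found in 3 of 598 and 0 of 266, which allows a share of up to 1.13%.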
